A study of Homo sapiens with 12 samples.

Results

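Angiogenic and vascular guidance factors are the subject here: a named list of 36 genes that encode secreted growth factors, inhibitors and guidance cues of blood vessels, with several of their receptors. The members were chosen by gene name, and each was read from 1 probe set, that of highest mean across all 12 arrays among those annotated to a single gene symbol. This gave 34 measured members of 19775 genes measured in all. ANGPTL2 and EDNRA had no such probe set in the annotation used and were not analysed here. The cells are IGROV-1, a human ovarian carcinoma line in long use, and their messenger RNA was hybridised to Affymetrix U133 Plus 2.0 arrays after the chemokine receptor CXCR4 had been stably knocked down. The 12 arrays form 4 groups of 3.

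The shCXCR4_I and shCXCR4_II cells each carry a plasmid for a different short hairpin RNA (shRNA) against CXCR4, and each is an individual clone. Mock cells carry a plasmid with a scrambled sequence and are a pool of clones. All 3 were transfected with a lipid reagent and kept for 30 days in puromycin at 4 µg/ml. Parental cells are untreated IGROV-1, with neither transfection nor selection. Every array received label made from 6 µg of total RNA. With 1 clone for each shRNA and a pool as the control, knockdown and clonal origin cannot be told apart. The labels do not say whether the 3 arrays of a group came from separate cultures, so each p-value reflects array-to-array spread alone, which may be technical.

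New vessels grow when ligands such as the vascular endothelial growth factors (VEGFs) bind receptor kinases on endothelial cells, and other ligands such as platelet-derived growth factors (PDGFs) recruit the mural cells that wrap them. Class 3 semaphorins and SLIT proteins steer the growing tips, and semaphorins share the neuropilin co-receptors with VEGF. Tumour cells are a known source of many of these secreted factors, while the receptors for most of them sit on vessel cells.

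The targeted gene was read first. CXCR4 (probe set 217028_at) had log2 values of 7.06, 7.10 and 7.11 on the shCXCR4_I arrays, 6.39, 6.73 and 6.75 on the shCXCR4_II arrays, 8.51, 8.60 and 8.64 on the Mock arrays and 8.42, 8.28 and 8.30 on the Parental arrays. Every array of both clones lay below every control array. CXCR4 thus stood at 35.6% of the Mock level in shCXCR4_I and 25.7% in shCXCR4_II. Epithelial markers were present: 6 of 7 epithelial and Muellerian marker genes lay above the median gene by mean level, with EPCAM averaging 11.78 on the log2 scale, and MUC16 was the exception at 2.98. CDH1, the epithelial cadherin, was 0.70 lower in shCXCR4_II than in Mock and 0.28 higher in shCXCR4_I than in Mock. Of 10 endothelial markers, only PECAM1 lay above the median gene, and CDH5 and KDR averaged 2.91 and 2.90 on the log2 scale. Among the other marker genes, 3 of 8 for fibroblasts and mural cells and 0 of 4 for leukocytes lay above the median gene.

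Members of the list passed the test in every comparison. A call means an adjusted p under 0.05 in a limma fit over all 19775 genes. In shCXCR4_I against Mock, 10 of 34 members were called, 6 up and 4 down. This is 29.4% of the members beside 23.6% of all genes (9.97% up and 13.6% down), so that this share lay near the background. In shCXCR4_II against Mock, 15 members were called, 7 up and 8 down, or 44.1% beside 26.1% of all genes (11.0% up and 15.1% down). Both comparisons use the same 3 Mock arrays, so they are not independent of each other. The clones differed from each other in 7 members, 6 higher and 1 lower in shCXCR4_I, which is 20.6% of the members beside 7.15% of all genes (4.66% up and 2.48% down).

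The controls also differed. Mock against Parental called 12 members, 3 up and 9 down, or 35.3% beside 15.0% of all genes (9.78% up and 5.23% down). Against Parental, shCXCR4_I differed in 10 members (29.4% beside 16.8% of all genes) and shCXCR4_II in 10 (29.4% beside 17.0%). Changes of at least 1.5-fold that also passed the test were fewer: 2 members in shCXCR4_I against Mock (5.88% beside 3.02% of all genes), 3 in shCXCR4_II against Mock (8.82% beside 2.73%), 3 between the clones (8.82% beside 0.794%) and 4 in Mock against Parental (11.8% beside 2.04%). The median difference over the members was 0.12 on the log2 scale in each clone against Mock, where the median over all genes was 0.02. In Mock against Parental the members' median was -0.15. The larger differences were falls: STC1, SEMA3C and PDGFC lie far to the left in the plot of all members, while no member rose by 1.5-fold in either clone against Mock.

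**Figure D1:**
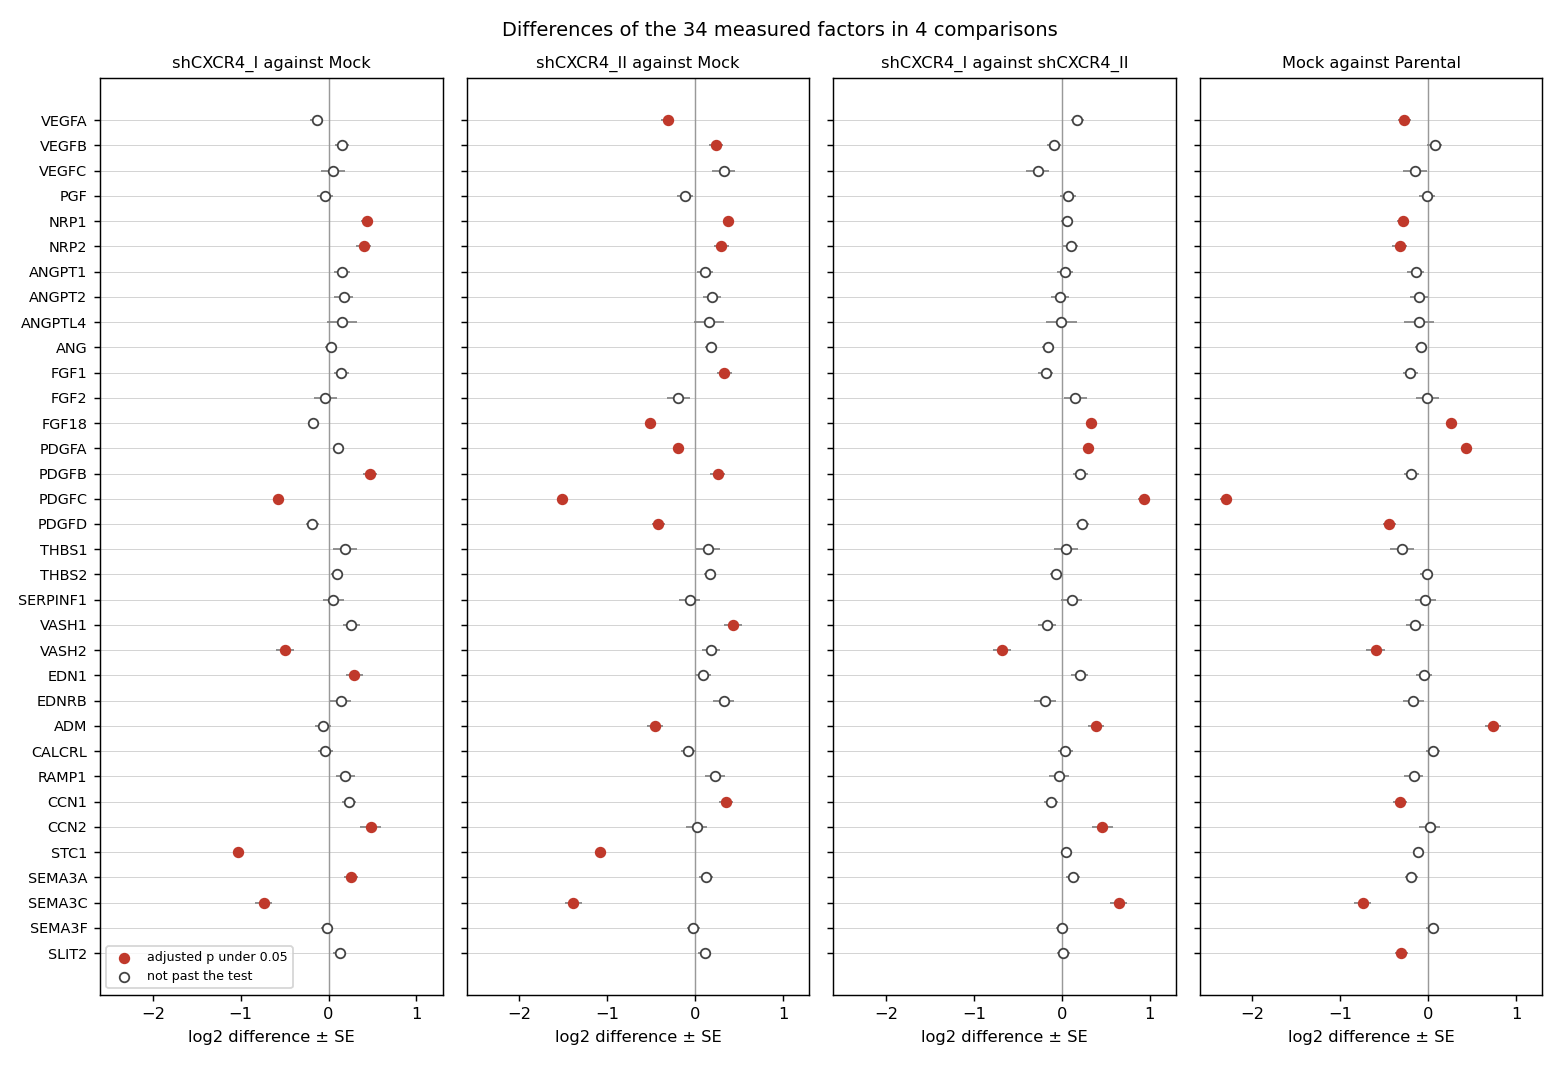
Log2 difference (x axis, with limma's standard error) of each of the 34 measured members (rows) in shCXCR4_I against Mock, shCXCR4_II against Mock, shCXCR4_I against shCXCR4_II and Mock against Parental. Filled points passed an adjusted p of 0.05 over all genes. STC1 lies at -1.03 and -1.08 in the clones against Mock and at -0.11 in Mock against Parental, while PDGFC lies at -2.31 in Mock against Parental.

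The promoters of 4 members are shown because the results turn on their genes: SEMA3C and PDGFD, which were lower in Mock than in Parental and lower again in shCXCR4_II, FGF18, which was lowest in shCXCR4_II, and VASH2, which was lowest in shCXCR4_I. These orders are those on the probe sets that represent the genes. Each sequence is the 250 bases before the gene start, 5′ to 3′ on the gene's strand, from RefSeq on GRCh38.p14. Capitals mark a match to the GC box (GGGCGG on either strand), the letters bound by Sp1-family factors.
SEMA3C: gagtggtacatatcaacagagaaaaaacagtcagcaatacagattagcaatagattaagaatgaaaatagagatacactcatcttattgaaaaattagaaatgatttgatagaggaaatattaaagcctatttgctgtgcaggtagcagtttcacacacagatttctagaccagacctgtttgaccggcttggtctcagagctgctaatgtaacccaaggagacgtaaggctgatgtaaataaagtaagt
PDGFD: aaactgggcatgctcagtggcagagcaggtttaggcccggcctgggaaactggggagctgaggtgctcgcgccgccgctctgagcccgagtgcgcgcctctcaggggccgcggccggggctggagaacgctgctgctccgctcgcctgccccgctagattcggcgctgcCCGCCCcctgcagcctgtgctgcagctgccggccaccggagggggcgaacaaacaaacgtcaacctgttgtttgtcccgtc
FGF18: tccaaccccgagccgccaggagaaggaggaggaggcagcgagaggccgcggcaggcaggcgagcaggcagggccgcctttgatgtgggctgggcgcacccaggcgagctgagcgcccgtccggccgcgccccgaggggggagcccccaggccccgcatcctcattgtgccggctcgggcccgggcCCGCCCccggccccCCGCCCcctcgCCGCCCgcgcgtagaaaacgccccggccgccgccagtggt
VASH2: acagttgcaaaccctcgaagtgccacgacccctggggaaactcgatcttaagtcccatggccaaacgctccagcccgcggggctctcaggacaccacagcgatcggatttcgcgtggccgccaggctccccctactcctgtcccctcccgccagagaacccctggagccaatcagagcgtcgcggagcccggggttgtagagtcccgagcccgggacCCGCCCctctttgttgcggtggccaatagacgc

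The SEMA3C window lies at chr7:80922390-80922639 on the minus strand, has a GC content of 36.4% and held no match to any motif searched. The PDGFD window (chr11:104164148-104164397, minus strand) has 69.2% GC and 1 GC box. The FGF18 window (chr5:171419397-171419646, plus strand) has 78.8% GC and 3 GC boxes. The VASH2 window (chr1:212950291-212950540, plus strand) has 65.2% GC and 1 GC box. SEMA3C thus differs from the other 3 in composition.

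A promoter entry existed for 23 of the 34 measured members. Their median GC content was 68.8%, beside 58.0% over all 35116 promoters in the table. The GC box was present in 17 of 23 members (73.9%), beside 42.6% of all promoters, and the TATA box (TATAAA) in 4 (17.4%), those of CCN2, THBS2, ADM and ANGPTL4, beside 10.7%. The core of the hypoxia response element (ACGTG) was found in 5 members (21.7%), those of EDN1, THBS2, EDNRB, VASH1 and ANGPTL4, beside 18.5% of all promoters. The TEAD site (GGAATG) was found in 3 (13.0%), CCN2, THBS2 and THBS1, beside 11.9%, and the AP-1 site (TGANTCA) in 0, beside 6.6%. All motifs were searched on both strands, no match in a member overlapped a match to another motif, and the GC and TATA boxes were added after the data had been seen. A match here is a string of letters in a window and says nothing of binding.

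STC1 fell in both clones against Mock, to about the same level. STC1 encodes stanniocalcin-1, a secreted glycoprotein hormone known from fish as a regulator of calcium and expressed in human tumours and vessels. Its log2 values (204595_s_at) were 6.75, 6.73 and 6.69 on the shCXCR4_I arrays, 6.62, 6.67 and 6.73 on the shCXCR4_II arrays, 7.75, 7.77 and 7.75 on the Mock arrays and 7.81, 7.90 and 7.89 on the Parental arrays. The clones overlapped each other, and each of their arrays lay below every Mock and Parental array. In shCXCR4_I the difference from Mock was -1.03 ± 0.06 on the log2 scale (limma's SE, limma adjusted p = 2.83e-08), so that 48.9% of the Mock level was left. In shCXCR4_II it was -1.08 ± 0.06 (limma adjusted p = 1.68e-08), so that 47.2% was left. In a bulk sample, fewer cells that express a gene and less RNA per cell cannot be told apart.

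For STC1, the clones passed no test against each other, nor did Mock against Parental. The difference of shCXCR4_I from shCXCR4_II was 0.05 (limma adjusted p = 0.687), and that of Mock from Parental was -0.11 (limma adjusted p = 0.201). Against Parental, STC1 stood at 45.2% in shCXCR4_I and 43.6% in shCXCR4_II. All 3 STC1 probe sets passed the test in both clones against Mock. The other 2 gave -1.20 and -0.96 in shCXCR4_I and -0.92 and -1.04 in shCXCR4_II, for 204596_s_at and 204597_x_at in that order. All 3 carry the suffix _s_at or _x_at, which marks probe sets that can match several transcripts, so the setting that leaves such probe sets out gave no STC1 value. Every other setting and every array left out kept both calls.

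**Figure D2:**
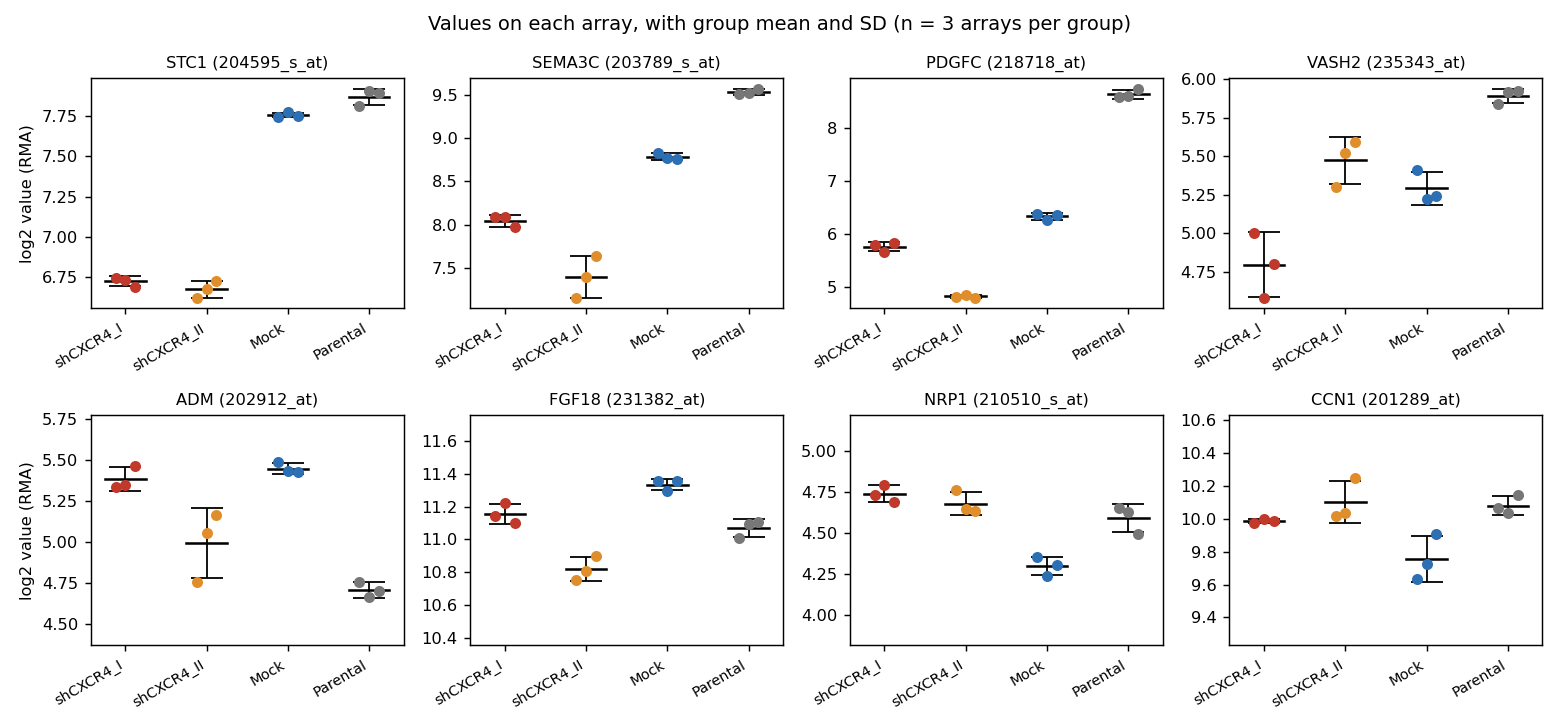
Log2 values of 8 members on each array (points), with the group mean (long bar) and SD (short bars) for shCXCR4_I, shCXCR4_II, Mock and Parental, n = 3 arrays each. The y axes differ between panels and do not start at 0. STC1 forms a low and a high pair of groups, SEMA3C and PDGFC are lowest in shCXCR4_II and highest in Parental, with PDGFC at a mean of 8.64 in Parental, and NRP1 is lowest in Mock at a mean of 4.30.

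SEMA3C was lower in both clones than in Mock, lower in shCXCR4_II than in shCXCR4_I, and lower in Mock than in Parental. It encodes a class 3 semaphorin, a secreted cue that acts through neuropilins and plexins on neural crest, endothelial and tumour cells. Its log2 values (203789_s_at) were 8.09, 8.09 and 7.97 on the shCXCR4_I arrays, 7.16, 7.40 and 7.64 on the shCXCR4_II arrays, 8.83, 8.77 and 8.76 on the Mock arrays and 9.51, 9.52 and 9.57 on the Parental arrays. No 2 of the 4 groups overlapped, and shCXCR4_II had the widest spread. The difference from Mock was -0.74 ± 0.10 in shCXCR4_I (limma adjusted p = 0.0001) and -1.39 ± 0.10 in shCXCR4_II (limma adjusted p = 3.31e-07). The level left was 59.9% and 38.3% of Mock for the 2 clones in that order.

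The clones differed in SEMA3C by 0.65 ± 0.10, higher in shCXCR4_I (limma adjusted p = 0.00122). Mock against Parental gave -0.75 ± 0.10 (limma adjusted p = 0.000147), a step as large as that of shCXCR4_I against Mock. Against Parental the transcript stood at 35.7% in shCXCR4_I and 22.8% in shCXCR4_II. The second probe set, 203788_s_at, gave -0.65 and -1.34 for shCXCR4_I and shCXCR4_II against Mock and -0.82 for Mock against Parental, all past the test. The 6 calls of SEMA3C held in every setting that gave a value and with every array left out, but both probe sets have the suffix _s_at.

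The other guidance cues moved less. SEMA3F, a semaphorin that acts through neuropilin-2, averaged 5.95 in shCXCR4_I, 5.94 in shCXCR4_II, 5.97 in Mock and 5.92 in Parental and was called in none of the 6 comparisons. SEMA3A, the neuropilin-1 ligand that collapses growth cones, had low values, with means of 3.23 in shCXCR4_I and 2.97 in Mock, and its difference of 0.26 (limma adjusted p = 0.0298) did not survive several alternatives. Without shCXCR4_I replicate 1, shCXCR4_I replicate 3 or Mock replicate 1 its limma adjusted p was 0.0878, 0.135 and 0.106 in that order, and after quantile normalization it was 0.0916. SLIT2, the ligand of ROBO receptors, was 0.31 lower in Mock than in Parental (limma adjusted p = 0.0133). That call ended with Parental replicate 2 left out (limma adjusted p = 0.0582) and with a probe set that lacks the _s_at suffix, at -0.11 (limma adjusted p = 0.592).

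The 4 PDGF ligands went different ways. PDGFC and PDGFD, which need proteolytic removal of a CUB domain before they bind the PDGF receptors alpha and beta, were lower in shCXCR4_II than in Mock and lower in Mock than in Parental. For PDGFD both steps rest on the probe set that represents the gene. PDGFB, the ligand that recruits pericytes, was higher in both clones than in Mock. PDGFA, a ligand of PDGF receptor alpha, was higher in Mock than in Parental.

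PDGFC had the largest difference of any member in shCXCR4_II against Mock, between the clones and in Mock against Parental. Its log2 values (218718_at) were 5.80, 5.66 and 5.84 on the shCXCR4_I arrays, 4.81, 4.86 and 4.80 on the shCXCR4_II arrays, 6.37, 6.27 and 6.37 on the Mock arrays and 8.58, 8.60 and 8.74 on the Parental arrays. The 4 groups did not overlap, and the step from the 3 puromycin-selected groups to Parental was wider than any step among them. The difference from Mock was -0.57 ± 0.07 in shCXCR4_I (limma adjusted p = 4.26e-05) and -1.51 ± 0.07 in shCXCR4_II (limma adjusted p = 4.38e-09). Mock itself stood at -2.31 ± 0.07 against Parental (limma adjusted p = 9.99e-11), a 4.95-fold lower level. Mock thus kept 20.2% of the Parental level.

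Against Parental, PDGFC was 7.34-fold lower in shCXCR4_I and 14.1-fold lower in shCXCR4_II. The clones differed by 0.94 ± 0.07, higher in shCXCR4_I (limma adjusted p = 2.63e-06). The second probe set, 222719_s_at, gave -1.95 for Mock against Parental and -0.52 for shCXCR4_II against Mock (limma adjusted p = 0.029 over all probe sets). For shCXCR4_I against Mock it gave -0.23, which did not pass (limma adjusted p = 0.328), and its difference between the clones, 0.29, did not pass either (limma adjusted p = 0.381). The calls on 218718_at held in every setting and with every array left out.

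PDGFD (219304_s_at) averaged 6.26 ± 0.09 in shCXCR4_I, 6.03 ± 0.09 in shCXCR4_II, 6.45 ± 0.06 in Mock and 6.89 ± 0.09 in Parental (log2, SD, n = 3). Its order was the same as that of PDGFC, but the neighbouring steps were smaller, and that between the clones, 0.23, did not pass (limma adjusted p = 0.0736). The difference of shCXCR4_II from Mock was -0.42 ± 0.07 (limma adjusted p = 0.0011), and that of Mock from Parental was -0.44 ± 0.07 (limma adjusted p = 0.00107). For shCXCR4_I against Mock it was -0.19 (limma adjusted p = 0.0826). Its second probe set, 222860_s_at, gave 0.09 and -0.19 for shCXCR4_I and shCXCR4_II against Mock, neither past the test. It did not pass in Mock against Parental either, but it was called lower in shCXCR4_II than in Parental.

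PDGFB (216061_x_at) averaged 5.73 ± 0.07 in shCXCR4_I, 5.51 ± 0.09 in shCXCR4_II, 5.25 ± 0.17 in Mock and 5.45 ± 0.05 in Parental. It was 0.47 ± 0.08 higher in shCXCR4_I than in Mock (limma adjusted p = 0.00126). In shCXCR4_II it was 0.26 ± 0.08 higher (limma adjusted p = 0.0386), a call that ended with shCXCR4_II replicate 1, shCXCR4_II replicate 2, Mock replicate 2 or Parental replicate 3 left out (limma adjusted p = 0.122, 0.104, 0.158 and 0.0517 in that order). A second probe set, 204200_s_at, was also higher in shCXCR4_I than in Mock, by 0.49 (limma adjusted p = 0.00722 over all probe sets). On the brightest probe set with neither suffix, shCXCR4_I had 0.22 (limma adjusted p = 0.309) and shCXCR4_II had 0.39 (limma adjusted p = 0.0677), so neither call held there. The call in shCXCR4_II also ended with each array centred on its median, at 0.18 (limma adjusted p = 0.111).

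PDGFA (205463_s_at) averaged 7.70 ± 0.03 in shCXCR4_I, 7.40 ± 0.06 in shCXCR4_II, 7.60 ± 0.04 in Mock and 7.16 ± 0.05 in Parental. Parental was the lowest group, and its arrays overlapped none of the others. Mock was 0.43 ± 0.06 above Parental (limma adjusted p = 0.000187), and shCXCR4_I was 0.30 ± 0.06 above shCXCR4_II (limma adjusted p = 0.0068). The other PDGFA probe set did not pass between the clones. The fall of 0.19 in shCXCR4_II against Mock (limma adjusted p = 0.0254) did not pass after quantile normalization, at -0.06 (limma adjusted p = 0.476). It also ended without shCXCR4_II replicate 1, shCXCR4_II replicate 2, Mock replicate 1 or Mock replicate 3 (limma adjusted p = 0.074, 0.0755, 0.07 and 0.0579 in that order).

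VASH2 separated the clones in the other direction from PDGFC and SEMA3C. Vasohibins are tubulin carboxypeptidases; VASH1 is known as a brake on angiogenesis made by endothelial cells, and VASH2 as a promoter of it. The VASH2 log2 values (235343_at) were 5.00, 4.58 and 4.80 on the shCXCR4_I arrays, 5.30, 5.52 and 5.59 on the shCXCR4_II arrays, 5.41, 5.22 and 5.24 on the Mock arrays and 5.84, 5.91 and 5.92 on the Parental arrays. shCXCR4_I was the lowest group, Parental the highest, and shCXCR4_II overlapped Mock. The difference between the clones was -0.68 ± 0.10, lower in shCXCR4_I (limma adjusted p = 0.00148), and that of shCXCR4_I from Mock was -0.50 ± 0.10 (limma adjusted p = 0.00362).

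In shCXCR4_II the VASH2 difference from Mock was 0.18 (limma adjusted p = 0.214). Mock was 0.60 ± 0.10 below Parental (limma adjusted p = 0.00148). The probe sets of VASH2 disagreed, and no other one passed between the clones. On 219740_at, shCXCR4_II was 0.46 above Mock (limma adjusted p = 0.00597), shCXCR4_I was 0.15 above Mock (limma adjusted p = 0.341) and Mock was 0.69 below Parental. With the mean of the VASH2 probe sets the difference of shCXCR4_I from Mock was -0.10 (limma adjusted p = 0.31), so the fall in shCXCR4_I rests on the 1 probe set that represents the gene.

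VASH1 (230546_at) averaged 4.86 in shCXCR4_I, 5.02 in shCXCR4_II and 4.60 in Mock. It rose by 0.43 ± 0.10 in shCXCR4_II against Mock (limma adjusted p = 0.00759), and the mean over its probe sets gave 0.15 (limma adjusted p = 0.0758). Of the other 4 VASH1 probe sets, 0 passed in that comparison, while 1 was called higher in shCXCR4_I than in Mock. Between the clones, 1 of them was called higher in shCXCR4_I, opposite to the sign of 230546_at. The other inhibitors of the list did not pass in any comparison. These were the thrombospondins THBS1 and THBS2, matrix proteins that bind CD36 and CD47, and SERPINF1, which encodes pigment epithelium-derived factor. THBS1 averaged 5.06 in shCXCR4_I, 5.02 in shCXCR4_II, 4.87 in Mock and 5.17 in Parental, with SDs of up to 0.28.

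FGF18, a fibroblast growth factor that signals mainly through FGFR3 and its relatives, was lower in shCXCR4_II than in the other groups on the probe set that represents it. FGF18 (231382_at) averaged 11.16 ± 0.06 in shCXCR4_I, 10.82 ± 0.07 in shCXCR4_II, 11.33 ± 0.03 in Mock and 11.07 ± 0.05 in Parental. shCXCR4_II lay below every other group. Its difference from Mock was -0.51 ± 0.06 (limma adjusted p = 6.07e-05), and it held in every alternative. The clones differed by 0.34 ± 0.06, higher in shCXCR4_I (limma adjusted p = 0.0047). For shCXCR4_I against Mock, FGF18 had -0.18 (limma adjusted p = 0.0516). The difference of shCXCR4_II from Parental, -0.25 (limma adjusted p = 0.0128), ended with averaged probe sets, at -0.14 (limma adjusted p = 0.159), and without Parental replicate 2 or 3 (limma adjusted p = 0.0532 and 0.0569 in that order).

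A total of 6 probe sets report FGF18. Besides the one above, 3 fell in both clones against Mock, by 0.31 to 0.43 on the log2 scale in shCXCR4_I and by 0.62 to 0.69 in shCXCR4_II, and the other 2 passed in neither. Against Parental, those 3 were also lower in shCXCR4_II, but a dim one, 206986_at, was 0.70 higher there (limma adjusted p = 0.00919 over all probe sets). The mean over the 6 gave a difference between the clones of 0.21, which did not pass (limma adjusted p = 0.0654). Mock was 0.26 above Parental (limma adjusted p = 0.0102), a call lost without Parental replicate 1 (limma adjusted p = 0.0512). FGF1, an acidic fibroblast growth factor with no signal peptide, rose by 0.33 in shCXCR4_II against Mock (limma adjusted p = 0.0138), and this ended without shCXCR4_II replicate 2 (limma adjusted p = 0.063) and when its probe sets were averaged (limma adjusted p = 0.0984). FGF2, the basic form, was called in no comparison.

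**Figure D3:**
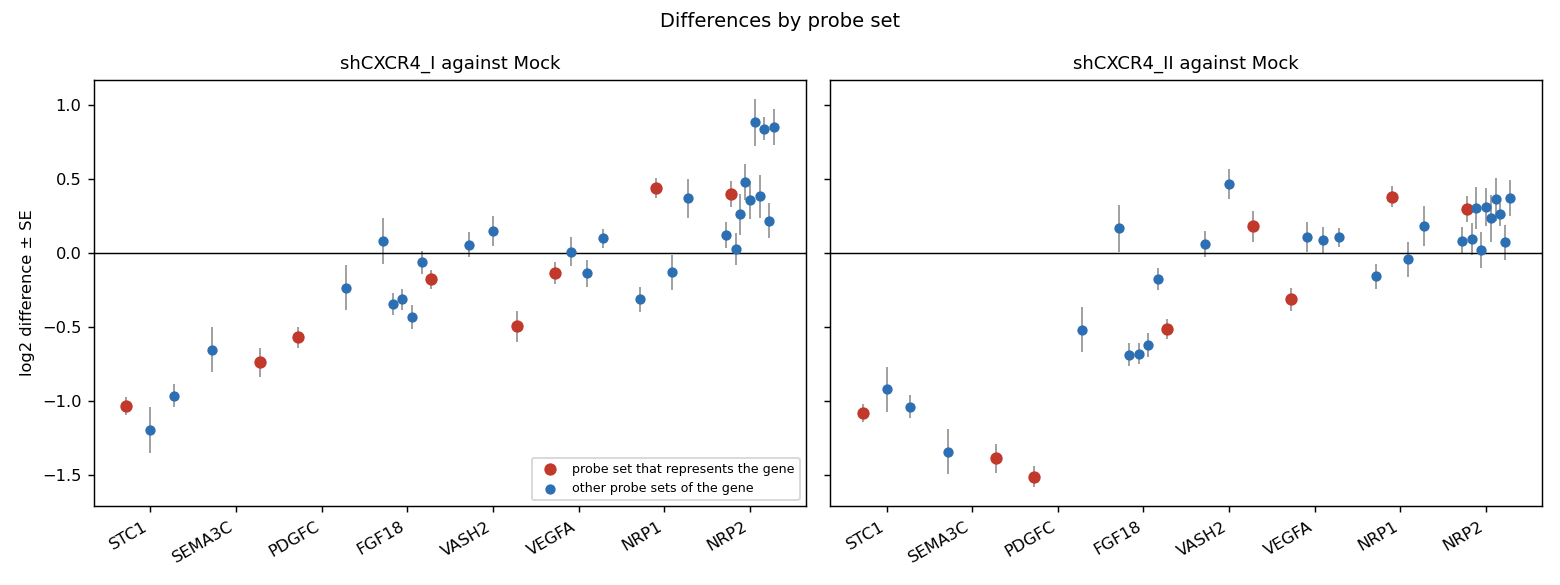
Log2 difference (y axis, with limma's standard error) of every single-symbol probe set of 8 members in shCXCR4_I against Mock and shCXCR4_II against Mock, with the probe set that represents the gene in red and the others in blue. The 3 STC1 probe sets lie between -1.20 and -0.92, whereas those of VASH2, VEGFA and NRP1 fall on both sides of 0 in at least 1 clone.

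ADM followed the opposite order to SEMA3C and PDGFC between the controls. It encodes adrenomedullin, a vasodilator peptide induced by low oxygen that acts on the receptor CALCRL paired with RAMP2 or RAMP3. Its log2 values (202912_at) were 5.33, 5.35 and 5.47 on the shCXCR4_I arrays, 4.75, 5.06 and 5.16 on the shCXCR4_II arrays, 5.48, 5.43 and 5.42 on the Mock arrays and 4.76, 4.66 and 4.70 on the Parental arrays. shCXCR4_I overlapped Mock at the high end, and shCXCR4_II overlapped Parental at the low end. Mock was 0.74 ± 0.09 above Parental (limma adjusted p = 8.22e-05). shCXCR4_II was 0.45 ± 0.09 below Mock (limma adjusted p = 0.00249), and shCXCR4_I had -0.06 (limma adjusted p = 0.646).

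The clones differed in ADM by 0.39 ± 0.09, higher in shCXCR4_I (limma adjusted p = 0.0173), a call lost without shCXCR4_I replicate 3 (limma adjusted p = 0.0749). Only 1 probe set reports ADM. EDN1, which encodes the vasoconstrictor endothelin-1, was 0.30 ± 0.09 higher in shCXCR4_I than in Mock (limma adjusted p = 0.0325), with overlapping arrays. This call ended without shCXCR4_I replicate 1, shCXCR4_I replicate 3, Mock replicate 1 or Mock replicate 2 (limma adjusted p = 0.0852, 0.135, 0.114 and 0.0943 in that order). The receptor genes EDNRB, CALCRL and RAMP1, the last of which pairs with CALCRL in the receptor of calcitonin gene-related peptide, were called in no comparison. EDNRB averaged between 2.51 and 2.84 over the 4 groups on the log2 scale.

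VEGFA, the main ligand of KDR, was lower in both clones than in Parental. It averaged 7.53 ± 0.10 in shCXCR4_I, 7.35 ± 0.04 in shCXCR4_II, 7.66 ± 0.09 in Mock and 7.94 ± 0.09 in Parental (210512_s_at). Both clones lay below Parental, shCXCR4_I by 0.41 (limma adjusted p = 0.00151) and shCXCR4_II by 0.59 (limma adjusted p = 9.63e-05), so that 75.4% and 66.6% of the Parental level were left in that order. Both calls held in every alternative that gave a value, and the setting without _x_at and _s_at probe sets gave none for VEGFA. With averaged probe sets the differences were smaller, at -0.23 (limma adjusted p = 0.0194) and -0.19 (limma adjusted p = 0.0496). Of the other 3 VEGFA probe sets, 1 passed in shCXCR4_I against Parental (211527_x_at, -0.38) and 0 passed in shCXCR4_II. The smaller difference of shCXCR4_II from Mock, -0.31, was not shared by the other 3 VEGFA probe sets, which had 0.09 to 0.11 there. That call also ended after quantile normalization, at -0.18 (limma adjusted p = 0.0826). Mock against Parental gave -0.27 (limma adjusted p = 0.0228), which ended without Parental replicate 2 or Mock replicate 3 (limma adjusted p = 0.103 and 0.093 in that order). That call also ended with averaged probe sets and with each array centred on its median, and 0 of the other 3 VEGFA probe sets passed there.

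VEGFB, a ligand of FLT1, averaged 5.28 in shCXCR4_I, 5.37 in shCXCR4_II, 5.13 in Mock and 5.06 in Parental. Its rise of 0.23 in shCXCR4_II against Mock (limma adjusted p = 0.0466) ended in most alternatives, among them 10 of the 12 fits with 1 array left out. PGF, placental growth factor and another FLT1 ligand, averaged between 7.84 and 7.97 in the 4 groups and was called in no comparison. VEGFC, the lymphatic ligand of FLT4, had means between 3.75 and 4.07 and no call.

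The neuropilins are the co-receptors of VEGF and class 3 semaphorins, and both were lower in Mock than in each of the other groups on the probe set that represents them. Of the other NRP1 probe sets, 0 passed the test in this direction for either clone against Mock. For Mock against Parental, 1 passed in the same direction and 1 in the opposite one. NRP1 (210510_s_at) averaged 4.74 ± 0.05 in shCXCR4_I, 4.68 ± 0.07 in shCXCR4_II, 4.30 ± 0.06 in Mock and 4.59 ± 0.09 in Parental. The difference from Mock was 0.44 ± 0.07 in shCXCR4_I (limma adjusted p = 0.0003) and 0.38 ± 0.07 in shCXCR4_II (limma adjusted p = 0.00103), while Mock was 0.29 below Parental (limma adjusted p = 0.00843). Against Parental, shCXCR4_I had 0.15 (limma adjusted p = 0.148) and shCXCR4_II had 0.09 (limma adjusted p = 0.384). The clones thus differed from Mock but passed no test against Parental on this probe set.

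Another NRP1 probe set, 212298_at, gave a different order. There shCXCR4_I was 0.64 and shCXCR4_II 0.83 below Parental, Mock was 1.01 below Parental, and the clones had 0.37 and 0.18 against Mock, neither past the test. A further one, 1561365_at, was 0.31 lower in shCXCR4_I than in Mock (limma adjusted p = 0.0186), and in it Mock was 0.28 above Parental (limma adjusted p = 0.0464 over all probe sets). No direction of NRP1 between the clones and Mock therefore held across its probe sets. Reading NRP1 from probe sets without the suffix ended the calls in both clones against Mock (limma adjusted p = 0.0711 in shCXCR4_I and 0.358 in shCXCR4_II).

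NRP2 (210841_s_at) averaged 5.53 ± 0.08 in shCXCR4_I, 5.43 ± 0.05 in shCXCR4_II, 5.13 ± 0.15 in Mock and 5.46 ± 0.15 in Parental. Its differences from Mock were 0.40 ± 0.09 in shCXCR4_I (limma adjusted p = 0.00481) and 0.30 ± 0.09 in shCXCR4_II (limma adjusted p = 0.0232), and Mock was 0.33 below Parental (limma adjusted p = 0.0216). All 11 NRP2 probe sets had a positive difference from Mock in both clones, from 0.03 to 0.88 in shCXCR4_I and from 0.02 to 0.37 in shCXCR4_II, and besides the one above 4 passed in shCXCR4_I and 2 in shCXCR4_II. The call in shCXCR4_II ended without shCXCR4_II replicate 1, shCXCR4_II replicate 2, Mock replicate 2 or Mock replicate 3 (limma adjusted p = 0.0525, 0.0783, 0.0934 and 0.073 in that order), and with each array centred on its median, at 0.22 (limma adjusted p = 0.0761). On the brightest NRP2 probe set with neither suffix, 223510_at, neither clone passed, at 0.38 in shCXCR4_I (limma adjusted p = 0.0812) and 0.36 in shCXCR4_II (limma adjusted p = 0.0884). The call of Mock against Parental ended without Parental replicate 2, Mock replicate 2 or Mock replicate 3 (limma adjusted p = 0.099, 0.0921 and 0.074 in that order). Of the other NRP2 probe sets, 7 were called lower in Mock than in Parental, 4 lower in shCXCR4_II than in Parental and 1 lower in shCXCR4_I than in Parental. Between the clones, 3 were called higher in shCXCR4_I. In each of these comparisons 0 were called the other way, and the rest did not pass. NRP2 was thus not low in Mock alone on every probe set.

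The Mock arrays also stood apart in the spread of their values, and they lay low in some measures that are not about these genes. Their interquartile range over all probe sets was 3.38 to 3.43 on the log2 scale, against 3.19 to 3.31 on the other 9 arrays. The summed linear level of 4 leukocyte markers, a set that this cell line should lack, was 80.4 to 86.7 in shCXCR4_I, 77.7 to 81.7 in shCXCR4_II, 62.4 to 72.6 in Mock and 72.4 to 77.5 in Parental. For the 10 endothelial markers it was 226.7 to 236.5 in shCXCR4_I, 213.9 to 230.3 in shCXCR4_II, 190 to 209.5 in Mock and 209.6 to 228.4 in Parental. For the 8 fibroblast and mural markers the sum was 238.1 to 248.5 in shCXCR4_I and 242.5 to 259.1 in shCXCR4_II. It was 233.8 to 241.7 in Mock and 254.6 to 263.8 in Parental. Mock thus overlapped Parental in the leukocyte sum and shCXCR4_I in the fibroblast and mural sum. PECAM1, the brightest endothelial marker, weighs most in the endothelial sum. It averaged 6.69 in shCXCR4_I, 6.59 in shCXCR4_II, 6.19 in Mock and 6.45 in Parental, and was called higher in both clones than in Mock. Whether the sums move with the values of the dim members was not tested. The part of all these measures in the result was not tested. After quantile normalization, which gives all arrays the same spread, the calls of NRP1, NRP2 and PDGFB in both clones against Mock remained. Under the same setting those of SEMA3A and EDN1 in shCXCR4_I (limma adjusted p = 0.0916 and 0.055 in that order) and of VEGFB in shCXCR4_II (limma adjusted p = 0.0859) ended. With each array centred on its median, NRP2 and PDGFB in shCXCR4_II ended as well.

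CCN1 and CCN2 encode matricellular proteins that bind integrins and are known targets of the YAP and TEAD transcription factors. CCN1 (201289_at) averaged 9.99 ± 0.01 in shCXCR4_I, 10.10 ± 0.13 in shCXCR4_II, 9.76 ± 0.14 in Mock and 10.08 ± 0.06 in Parental. It was 0.35 ± 0.08 higher in shCXCR4_II than in Mock (limma adjusted p = 0.00672), and shCXCR4_I had 0.23 (limma adjusted p = 0.0515). A second CCN1 probe set, 210764_s_at, rose in both clones against Mock, by 0.32 (limma adjusted p = 0.015) and 0.50 (limma adjusted p = 0.000769) in that order. Mock was 0.33 below Parental (limma adjusted p = 0.0136), a call lost without Parental replicate 3 or Mock replicate 1 (limma adjusted p = 0.0596 and 0.0539 in that order).

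CCN2 (209101_at) had low values, with log2 means of 2.81 in shCXCR4_I, 2.35 in shCXCR4_II, 2.33 in Mock and 2.31 in Parental. Every shCXCR4_I array lay above every array of the other groups. Its difference from Mock in shCXCR4_I was 0.48 ± 0.12 (limma adjusted p = 0.0109). The difference between the clones, 0.46 ± 0.12 (limma adjusted p = 0.034), ended when any of shCXCR4_I replicates 1, 2 and 3 or shCXCR4_II replicate 2 was left out (limma adjusted p = 0.0732, 0.115, 0.0929 and 0.126 in that order).

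The remaining members passed in no comparison on the probe set that represents them. In all, 14 of the 34 were called in none of the 6 comparisons, a count that is not set against the share over all genes. No difference among the 14 exceeded 0.33 on the log2 scale. Those not yet named were ANGPT1 and ANGPT2, the ligands of the receptor TEK, ANGPTL4, an inhibitor of lipoprotein lipase, and ANG, a secreted ribonuclease. Among the 14, ANGPTL4 was the one with another probe set past the test: 221009_s_at was 0.39 higher in shCXCR4_I than in Mock (limma adjusted p = 0.00881 over all probe sets) and 0.33 higher than in Parental (limma adjusted p = 0.0274). The mean of both ANGPTL4 probe sets also passed in shCXCR4_I against Mock, at 0.27 (limma adjusted p = 0.0477). ANGPT1 averaged between 3.51 and 3.67, and ANGPT2 between 2.40 and 2.59, over the 4 groups. A filter that keeps the upper 50% of genes by mean log2 value would keep 13 of the 34 members, and 21 lie below it. No such filter was applied.

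Genes related to the members moved in both directions. Of 25 measured receptors and co-receptors of these ligands, 4 rose and 4 fell in shCXCR4_I against Mock (32% of the list, beside 23.6% of all genes), and 8 rose and 4 fell in shCXCR4_II (48%, beside 26.1%). The fibroblast growth factor receptor FGFR3, which binds FGF18, fell by 0.68 in shCXCR4_I (limma adjusted p = 0.000174) and by 0.92 in shCXCR4_II (limma adjusted p = 1.44e-05), although Mock itself was 0.855 above Parental in it (limma adjusted p = 3.91e-05). FLT4 fell by 0.87 in shCXCR4_I (limma adjusted p = 7.04e-06), and here too Mock was above Parental, by 0.93 (limma adjusted p = 5.02e-06). FGFR4 fell by 0.64 in shCXCR4_I (limma adjusted p = 1.65e-05). In shCXCR4_II, FGFR2 rose by 0.62 (limma adjusted p = 4.0e-05), and PLXNA3, a plexin that transduces semaphorin signals, rose by 0.52 (limma adjusted p = 0.00222). In FGFR2, Mock was 1.29 below Parental (limma adjusted p = 5.71e-08), and shCXCR4_II was still 0.67 below Parental (limma adjusted p = 2.2e-05). The FGFR2 calls in shCXCR4_II against Mock and in Mock against Parental ended on probe sets without the _s_at or _x_at suffix (limma adjusted p = 0.129 and 0.727 in that order), where shCXCR4_II against Parental gave 0.22.

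Of 30 other secreted vascular factors and inhibitors, 6 rose and 2 fell in shCXCR4_I against Mock (26.7% of the list, beside 23.6% of all genes), and 5 rose and 3 fell in shCXCR4_II (26.7%, beside 26.1%), so that both shares lay near the background. CCN3, a relative of CCN1 and CCN2, rose by 1.25 in shCXCR4_I (limma adjusted p = 8.88e-09) and had 0.02 in shCXCR4_II (limma adjusted p = 0.864), and the clones differed by 1.24 (limma adjusted p = 7.11e-08). Mock was 0.59 above Parental in CCN3 (limma adjusted p = 1.61e-05). STC2, the paralogue of STC1, rose in both clones, by 0.62 in shCXCR4_I (limma adjusted p = 3.72e-05) and by 0.54 in shCXCR4_II (limma adjusted p = 0.000145). The 2 stanniocalcins thus differed from Mock in opposite directions. TYMP, thymidine phosphorylase, rose by 0.55 in shCXCR4_I and 0.51 in shCXCR4_II on a probe set with the _s_at suffix (limma adjusted p = 0.000762 and 0.00143 in that order), and without such probe sets it had 0.15 and -0.20, neither past the test. NTN4, a netrin, fell by 0.46 in shCXCR4_II (limma adjusted p = 0.0223), a call that ended without shCXCR4_II replicate 1, Mock replicate 1 or Mock replicate 2 (limma adjusted p = 0.0912, 0.076 and 0.0564 in that order). NTN4 differed more between the controls, where Mock was 1.55 below Parental (limma adjusted p = 4.29e-06).

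**Figure D4:**
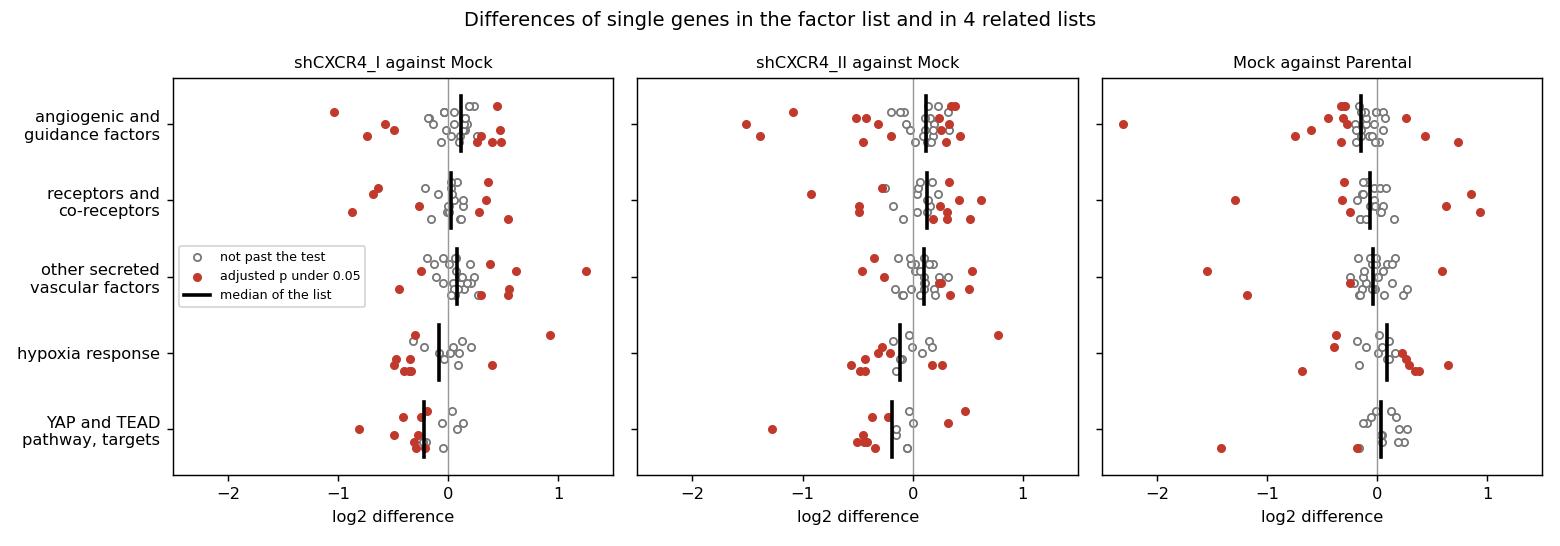
Log2 difference (x axis) of every measured gene in the factor list and 4 related lists (rows) in shCXCR4_I against Mock, shCXCR4_II against Mock and Mock against Parental. Filled points passed an adjusted p of 0.05 over all genes, and the black bar is the median of the list, which for the YAP and TEAD list lies at -0.22 in shCXCR4_I and -0.19 in shCXCR4_II against Mock.

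The list of hypoxia response genes, the low-oxygen programme that can induce VEGFA and ADM, held more falls than rises in both clones against Mock, as did all genes. Of 19 measured, 2 rose and 7 fell in shCXCR4_I against Mock (47.4% of the list, beside 23.6% of all genes, 9.97% up and 13.6% down). In shCXCR4_II, 3 rose and 7 fell (52.6%, beside 26.1% of all genes, 11.0% up and 15.1% down). In Mock against Parental the split was the other way, with 6 up and 3 down (47.4%, beside 15.0% of all genes). Against Parental, 4 rose and 4 fell in shCXCR4_I (42.1%, beside 16.8% of all genes, 8.25% up and 8.56% down), and 3 rose and 2 fell in shCXCR4_II (26.3%, beside 17.0%, 7.47% up and 9.48% down). NDRG1, a stress-induced gene, was the exception in size and rose by 0.92 in shCXCR4_I (limma adjusted p = 3.07e-06) and by 0.77 in shCXCR4_II (limma adjusted p = 1.51e-05). PDK1, a kinase that restrains pyruvate dehydrogenase, fell by 0.49 and 0.56 in that order (limma adjusted p = 0.00137 and 0.00057), and the mean over its probe sets passed in neither clone (limma adjusted p = 0.0914 and 0.0652). HIF1AN, the asparagine hydroxylase that inhibits HIF-1, fell by 0.47 in shCXCR4_I (limma adjusted p = 0.000311). P4HA1, a collagen prolyl hydroxylase, fell by 0.48 in shCXCR4_II (limma adjusted p = 0.000456), but a probe set without the suffix gave -0.02 (limma adjusted p = 0.876). Between the controls, NDRG1 was 0.38 lower in Mock than in Parental (limma adjusted p = 0.00575), while PDK1, P4HA1 and HIF1AN were higher in Mock, by 0.65, 0.38 and 0.26 (limma adjusted p = 0.000244, 0.00325 and 0.0228 in that order). The PDK1 call ended with averaged probe sets (limma adjusted p = 0.0572) and that of P4HA1 without the suffix (limma adjusted p = 0.146). That of HIF1AN ended without Parental replicate 1, Parental replicate 3, Mock replicate 1 or Mock replicate 2 (limma adjusted p = 0.0883, 0.0807, 0.0691 and 0.0692 in that order).

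Most called genes of the YAP and TEAD list fell in the clones against Mock. Of 16 measured genes, 0 rose and 9 fell in shCXCR4_I against Mock (56.2% of the list, beside 23.6% of all genes, 9.97% up and 13.6% down). In shCXCR4_II, 2 rose and 8 fell (62.5%, beside 26.1% of all genes, 11.0% up and 15.1% down). The list's medians were -0.22 and -0.19 in that order, where that over all genes was 0.02. In Mock against Parental, 0 rose and 2 fell (12.5%, beside 15.0% of all genes). ANKRD1, a YAP target, fell by 0.81 in shCXCR4_I (limma adjusted p = 2.39e-05) and by 1.28 in shCXCR4_II (limma adjusted p = 3.31e-07). LATS2, a kinase that restrains YAP, and TEAD1 fell in shCXCR4_I by 0.49 (limma adjusted p = 0.000342) and 0.41 (limma adjusted p = 0.00276). YAP1 itself fell by 0.50 in shCXCR4_II (limma adjusted p = 0.00113), while DLC1 rose by 0.48 there (limma adjusted p = 0.00092). CCN1 and CCN2, targets of the same factors in the factor list, had no negative difference in either clone against Mock on the probe sets used, although CCN2 in shCXCR4_II turned to -0.04 after quantile normalization and -0.06 with median centring. After quantile normalization 4 genes of the list were called in shCXCR4_I.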

How the data were processed

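RNA of 12 IGROV-1 samples in 4 groups of 3 was measured on 1-colour Affymetrix Human Genome U133 Plus 2.0 arrays. The authors deposited log2 values, 1 for each probe set on each array. Per the submitters' processing notes RMA and R 2.6.0 were used, and the sources used here give neither the chip definition file nor a filter. The scale could not be set against scanner output, which was not used here. The values were not normalized again. The number of arrays limits the precision. Of 54675 probe sets, 41097 carry 1 gene symbol in the platform annotation, 1801 several and 11777 none, and 41043 matched the gene name table by Entrez number. Each of 19775 genes was read from 1 single-symbol probe set, that of highest mean over all arrays.

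All genes were tested together with limma 3.58.1 under R 4.3.3, using lmFit and eBayes on a model of group means with 8 residual and 5.19 prior degrees of freedom, with p adjusted by Benjamini-Hochberg at 0.05. For single probe sets other than the one that represents a gene, the adjustment ran over every single-symbol probe set. The fit was tested on simulated data. The 6 comparisons pair the 4 groups, and those of the clones share the Mock or Parental arrays. The members and related lists were chosen with earlier results of these data known. A member was given array by array if it passed at 1.5-fold or more in a clone against Mock, between the clones or in Mock against Parental, and up to 3 called genes with the largest change were named from each related list and clone. In the related and marker lists, VEGFD, ANGPTL1, CA9, NUAK2 and CD68 had no single-symbol probe set and were not analysed here. The alternatives were averaged probe sets, probe sets without the _x_at or _s_at suffix, adjustment over all probe sets, filters on dim genes, quantile normalization, median centring, a trended and robust prior, array weights, a replicate block, fits restricted to the compared groups, a stricter threshold and each array left out. Figures used Python 3.11.15 and matplotlib 3.10.9.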

Additional observations from a re-analysis of the deposited data

Results flagged for a closer look

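On the probe sets that represent them, 7 members differed from Mock unequally in the 2 clones. The test is that of the difference between the clones itself. All values are shCXCR4_I minus shCXCR4_II on the log2 scale. PDGFC (0.94, limma adjusted p = 2.63e-06), SEMA3C (0.65, limma adjusted p = 0.00122), CCN2 (0.46, limma adjusted p = 0.034), ADM (0.39, limma adjusted p = 0.0173), FGF18 (0.34, limma adjusted p = 0.0047) and PDGFA (0.30, limma adjusted p = 0.0068) were higher in shCXCR4_I. VASH2 was lower in shCXCR4_I (-0.68, limma adjusted p = 0.00148). No array of the first clone overlapped an array of the second for any of these 7. They were picked by the test between the clones, so this separation adds no support to it. No other probe set of PDGFC, PDGFA or VASH2 passed between the clones, and ADM and CCN2 have 1 probe set each. The calls of ADM and CCN2 ended with single arrays left out, and that of FGF18 ended with averaged probe sets. A second SEMA3C probe set passed in the same direction as the first, as did 2 others of FGF18. CXCR4 itself was 0.47 higher in shCXCR4_I (limma adjusted p = 0.00517). Each clone is a single one, so the shRNA and the clone cannot be told apart.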

How the results depend on the processing

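Of 64 called results of members, 36 kept their call and direction under every alternative judged at an adjusted p of 0.05, and 28 lost the call under at least 1. A setting that gave no value for a member could not end its call. The setting without _x_at and _s_at probe sets gave none for STC1, SEMA3C and VEGFA, among others. Of the 36, 34 also passed at an adjusted p of 0.01, and the 2 that did not were CCN2 in shCXCR4_I against Mock and against Parental. The count of members called fell by more than 1.5 times without _x_at and _s_at probe sets, where only 25 members remain measured: 4 in shCXCR4_I against Mock, 6 in shCXCR4_II against Mock, 7 in Mock against Parental, 6 in shCXCR4_I against Parental and 4 in shCXCR4_II against Parental. With genes of a mean log2 of at least 6, which keeps 9 members, these counts were 6, 8, 7 and 6 for the first 4 of those comparisons. No member kept by this filter lost a call, so the lower counts reflect the members removed. The share over all genes under this filter is not given here. At an adjusted p under 0.01, 7 members were called in Mock against Parental and 5 in shCXCR4_II against Parental. With each array left out in turn the counts ran from 8 to 13 in shCXCR4_I against Mock, 10 to 15 in shCXCR4_II against Mock, 9 to 12 in Mock against Parental, 5 to 8 between the clones, 9 to 10 in shCXCR4_I against Parental and 6 to 10 in shCXCR4_II against Parental, with the lowest of the last without Parental replicate 2. Without _x_at and _s_at probe sets, NRP1 reversed against Parental, to -0.64 in shCXCR4_I and -0.83 in shCXCR4_II, FGFR2 reversed to 0.22 in shCXCR4_II against Parental, and TYMP reversed in shCXCR4_II to -0.20 against Mock and -0.0675 against Parental; another probe set was read there. In the related lists, leaving out _x_at and _s_at probe sets cut the calls against Mock to 5 of the other secreted factors in shCXCR4_I and 6 of the hypoxia genes in shCXCR4_II, against 8 and 10 as reported; fitting only the groups compared left 7 receptors and 3 other secreted factors called in shCXCR4_II, against 12 and 8; and quantile normalization left 4 YAP and TEAD genes called in shCXCR4_I, against 9.

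A replicate block gave 11 members called in shCXCR4_I against Mock, 14 in shCXCR4_II against Mock, 12 in Mock against Parental, 7 between the clones and 10 in each clone against Parental. Arrays with the same replicate number did not deviate together (18 pairs, median correlation 0.011 of deviations from the group means, -0.109 to 0.148). The labels state no batch behind the numbers, and these correlations cannot show whether same-numbered arrays were handled together. Detection calls were not used here, so no member is said to be absent.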
